A study of Mus musculus with 9 samples.

Results

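Histone methylation enzymes and Prdm factors were followed in naïve and primed mouse pluripotent stem cells. The members were all protein-coding genes whose symbol has the stem Kdm, Kmt, Setd or Prdm followed by a number and at most 1 letter from a to f, which gave 48 of the 54232 genes in the count table. Of these, 18 were Kdm genes (lysine demethylases), 8 Kmt genes (lysine methyltransferases), 8 Setd genes (proteins with a SET domain) and 14 Prdm genes (proteins with a PR domain, which is related to the SET domain). The rule used symbols only and no measured value. Genes with other names that do the same chemistry, such as Ezh2 or Setdb1, fall outside it and are given as a list of their own below.

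RNA-seq counts came from 9 libraries of mouse cells of C57 x CBA background. Naïve mESCs, which are embryonic stem cells with the properties of the early blastocyst, grew in serum and LIF (S/L medium) on feeders. Primed mEpiSCs, which resemble the epiblast after implantation, had been converted from naïve mESCs in a medium with Fgf2 and activin A (F/A medium), also on feeders. Both states were sampled at passage 5 (P5) and passage 15 (P15), with 2 libraries for each state and passage, and 1 library came from mouse embryonic fibroblasts (MEFs). By the study's methods the ESC line of this cross carries GFP under the distal Oct4 promoter, so that each group is a culture of 1 line, and the feeders were mitomycin C-treated MEFs. Total counts were 14378051 to 20985136 in the 8 pluripotent libraries and 25646547 in the MEF library. The study calls the libraries of a group biological repeats, but nothing in the labels says that they came from separate cultures, so p-values measure only the spread between these libraries.

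Histone lysine methylation is written by enzymes that mostly carry a SET domain and is removed either by flavin-dependent oxidases (Kdm1a and Kdm1b) or by JmjC-domain dioxygenases (most other Kdm proteins). Methylation of H3K4 is found at promoters and enhancers of active genes, that of H3K9 and H3K27 at silenced ones, that of H3K36 along transcribed genes and that of H4K20 in compacted chromatin. Prdm proteins mostly bind DNA through zinc fingers, and few of them have a known methyltransferase activity. Prdm14 is a factor of naïve pluripotency and, with Prdm1, of the specification of germ cells.

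The markers of both states went with the labels. The naïve markers Zfp42, Esrrb, Dppa3, Tbx3, Nr0b1 and Klf2 fell and the primed markers Fgf5, Otx2, Pou3f1, T and Cer1 rose in primed cells at both passages. Of 20 fibroblast markers, 6 rose and 12 fell in primed cells at P5, and 9 rose and 7 fell at P15. None of the 20 was at 0 in all 8 pluripotent libraries, and their summed level was 7671 to 7752 CPM (counts scaled to the total of their library) in naïve and 5255 to 5379 CPM in primed libraries at P5, 13810 to 14493 and 12912 to 13317 CPM at P15, and 74395 CPM in MEFs. The median ratio of these markers to their MEF level, taken as a feeder share, was 16.96% and 17.02% in naïve and 9.97% and 11.6% in primed libraries at P5, and 18.4% and 18.8% in naïve and 23.4% and 23.9% in primed libraries at P15. Single markers differed widely in that ratio. In the 8 pluripotent libraries the lowest marker was at 2.51% to 6.61% of its MEF level and the highest at 5427% to 795203%. The share and its subtraction are therefore rough, and the MEF level stands below beside each member with values per library. Most other results are given without it. The part of feeder RNA was tested only as a subtraction of that share. In bulk RNA, fewer cells of a type and less RNA per cell cannot be told apart.

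The promoters of 4 members are shown because the results below turn on them. Kmt2a and Kdm7a rose in primed cells at P5 and not detectably at P15, Setd7 rose at both passages and Kdm5b fell at both, and they were chosen after their values were seen. The letters are the 250 bases before the RefSeq transcription start in GRCm38.p6, 5′ to 3′ on the strand of the gene, with GC boxes (GGGCGG or its reverse complement CCGCCC) in capitals. The windows are chr9:44881290-44881539 on the minus strand for Kmt2a, chr6:39206774-39207023 on the minus strand for Kdm7a, chr3:51560824-51561073 on the minus strand for Setd7 and chr1:134559928-134560177 on the plus strand for Kdm5b.
Kmt2a: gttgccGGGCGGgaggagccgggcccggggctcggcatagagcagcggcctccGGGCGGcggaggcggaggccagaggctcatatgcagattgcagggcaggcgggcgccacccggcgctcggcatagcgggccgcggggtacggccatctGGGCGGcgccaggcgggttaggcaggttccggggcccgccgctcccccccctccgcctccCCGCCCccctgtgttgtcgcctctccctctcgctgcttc
Kdm7a: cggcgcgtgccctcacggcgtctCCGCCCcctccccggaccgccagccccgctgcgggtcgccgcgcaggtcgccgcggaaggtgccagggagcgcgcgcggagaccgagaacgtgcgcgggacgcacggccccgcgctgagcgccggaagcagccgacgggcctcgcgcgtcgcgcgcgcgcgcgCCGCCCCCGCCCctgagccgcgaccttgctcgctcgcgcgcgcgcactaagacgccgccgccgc
Setd7: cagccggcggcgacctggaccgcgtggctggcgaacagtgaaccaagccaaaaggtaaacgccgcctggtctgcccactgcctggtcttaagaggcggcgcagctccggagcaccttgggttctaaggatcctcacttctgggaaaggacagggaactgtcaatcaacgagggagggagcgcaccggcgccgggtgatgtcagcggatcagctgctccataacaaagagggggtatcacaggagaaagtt
Kdm5b: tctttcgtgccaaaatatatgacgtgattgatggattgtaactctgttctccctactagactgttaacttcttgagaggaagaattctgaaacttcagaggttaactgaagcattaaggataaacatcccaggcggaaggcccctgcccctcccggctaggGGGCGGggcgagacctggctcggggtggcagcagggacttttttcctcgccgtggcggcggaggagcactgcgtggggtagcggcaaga
The window of Kmt2a held 29 CpG dinucleotides and 4 GC boxes and that of Kdm7a 56 CpG and 3 GC boxes, of which the last 2 directly adjoin. The window of Setd7 held 17 CpG and no GC box, and that of Kdm5b 13 CpG and 1 GC box. None of the 4 held CCAAT on either strand. RefSeq windows were matched for 36 of the 48 members (50 windows), of which 58% held a GC box and 46% a CCAAT box, against 32.7% and 33.8% of all 32851 windows. The median number of CpG was 18 in the windows of members and 6 in all windows. These matches describe the letters of the window and are not binding sites. The 27025 genes behind all windows were not matched to the members by level or gene type. What the contrast between the sets rests on was not tested.

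The members spanned a wide range of levels. Per kilobase of exon, which is the scale used here to set genes beside each other, the mean of the 8 pluripotent libraries had a median of 5.83 CPM per kb over the 48 members. A level of at least 10 CPM in all 8 libraries was found for 35 members. Kdm1a, the flavin-dependent H3K4 demethylase, had the highest level of all (41.8 CPM per kb), followed by Kmt5a, which places the first methyl group on H4K20 (24.8), and Kdm5c, an X-linked H3K4 demethylase (22.8). The highest Setd genes were Setd3, an actin histidine methyltransferase (16.98 CPM per kb), and Setd6 (16.3), and the second of the Kmt genes was Kmt5c (16.3), which di- and trimethylates H4K20. Counted over the longest transcript in place of all exons, Setd5 took the first place among the Setd genes (39.6 CPM per kb), Kdm5b the second among the Kdm genes (32.3) and Kdm5c the third (25.2). The Prdm genes were the lowest stem, led by Prdm4 (10.99 CPM per kb) and Prdm2 (10.1), and 3 members, Kdm4d, Prdm12 and Prdm13, had under 1 CPM in all 8 libraries and too few counts for any test. A count of 0 allows a level of up to 3 counts, or 0.148 to 0.221 CPM in the pluripotent libraries, and this covers counting error only. The MEF library lay above all 8 pluripotent libraries for 10 members and below all 8 for 20. The plot of levels shows these ranges.

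**Figure D1:**
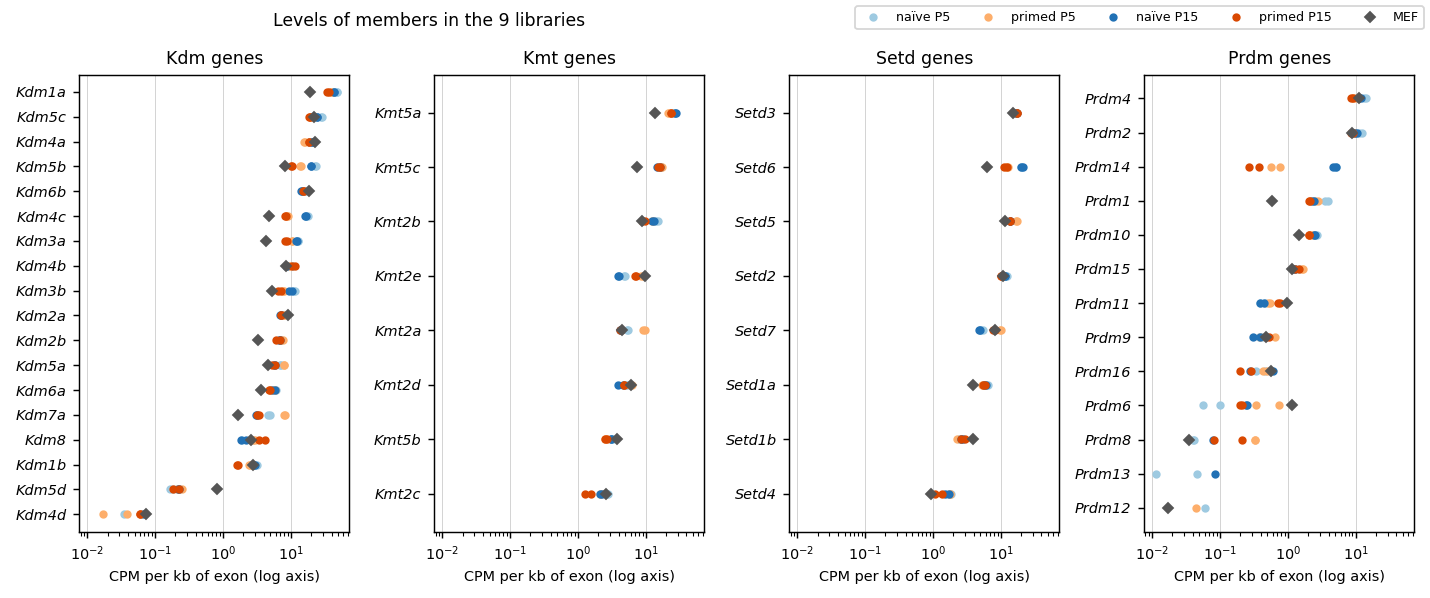
Levels of the members plotted in the 9 libraries, in CPM per kilobase of exon on a log axis, by symbol stem and ordered by the mean of the 8 pluripotent libraries; circles are naïve and primed libraries and diamonds the MEF library, and libraries without a count are left off the axis. Kdm1a stands at 41.8 CPM per kb on average, and for most Kdm, Kmt and Setd genes the libraries lie close together beside the distance between genes.

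Primed against naïve cells at P5 was the comparison that asked which enzymes go with the primed state soon after conversion. Of the 45 members tested, 9 rose and 18 fell in primed cells by edgeR's quasi-likelihood test at an adjusted p under 0.01, which is 20% and 40% of them, where 31.2% of all 16482 genes tested rose and 31.1% fell. Changes were small beside those of other genes. The median absolute log2 fold change was 0.29 for the members and 0.51 for all genes tested, and only 2 members rose and 1 fell by at least 2-fold, where 13.5% of all genes rose and 8.85% fell that far. These 3 were all Prdm genes, and no Kdm, Kmt or Setd gene reached 2-fold in this fit. With the feeder share taken off, Setd7 and Kmt2e did pass 2-fold, as given below. The split of calls moved with the scaling, since under scaling by library size without TMM factors 16 members rose and 7 fell, while the median of all genes moved from 0.01 to 0.21 on the log2 scale. Of the 9 members that rose, 7 kept their call under every alternative tried. The other 2, Prdm6 and Prdm8, which were also the 2 past 2-fold, kept it wherever they were tested. However, both reached the count threshold at P5 through the primed libraries alone, so that only a rise could have been called. They had too few counts to be tested without primed replicate 1 or without primed replicate 2 at P5. Of the 18 that fell, 7 did so (Kdm3b, Kdm4c, Kdm5b, Kdm5c, Prdm14, Prdm4 and Setd6). Without primed replicate 1 or without primed replicate 2 at P5, 13 members fell in place of 18.

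At P15, 5 of 44 members tested rose and 15 fell, where 28.2% of all 15733 genes rose and 28.4% fell. No member rose and 1 fell by at least 2-fold, beside 12.2% and 11% of all genes. With the feeder share taken off, Kmt2e did rise past 2-fold, as given below. The median absolute log2 fold change was 0.27 for the members and 0.48 for all genes. With library size alone, 7 members rose and 11 fell. Counted over both passages, which share no library, 2 members rose and 14 fell at each, where 21.5% and 22.4% of the 15487 genes tested at both did. The 2 were Setd7 and Kmt2e, and the 14 were Kdm1a, Kdm3a, Kdm3b, Kdm4c, Kdm5b, Kdm5c, Kmt2b, Kmt2c, Kmt5a, Kmt5b, Prdm14, Prdm4, Setd2 and Setd6. Of these 14, only Kdm3b, Kdm4c, Kdm5b, Kdm5c, Prdm14, Prdm4 and Setd6 kept the call at both passages under every alternative tried. The 5 that rose at P15 all kept their call there. Of the 15 that fell at P15, 11 did, and Kdm1a, Kmt5a, Kmt5b and Setd2 did not. A further 14 members were called at neither passage, among them the H3K27 demethylases Kdm6a and Kdm6b and both Kdm2 genes.

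**Figure D2:**
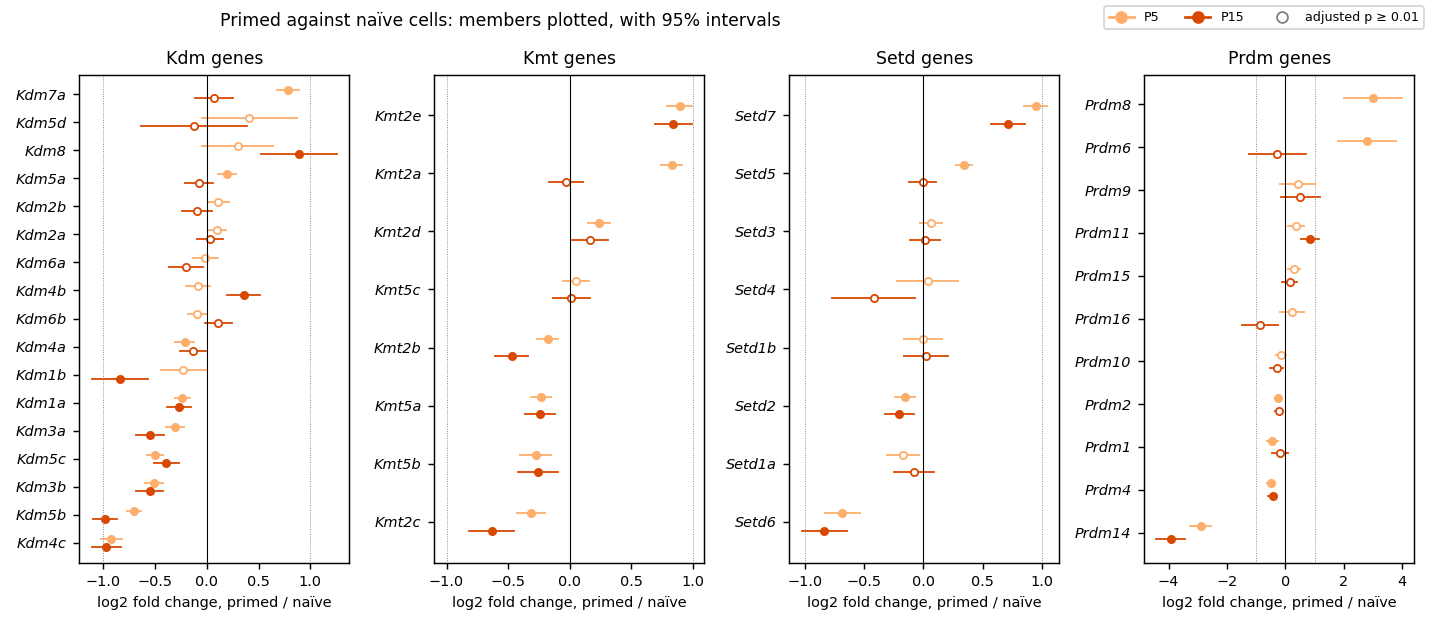
Log2 fold change of primed over naïve cells for the members plotted, at P5 (light) and P15 (dark), with 95% intervals. The intervals rest on the SE derived from edgeR's test statistic. Filled points have an adjusted p under 0.01, dotted lines mark 2-fold, and the Prdm panel has a wider axis. Prdm14 lies at -2.91 and -3.93, while all Kdm, Kmt and Setd genes lie within 2-fold at both passages in this fit, which takes no feeder share off.

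Among the writers of H3K4 methylation, 3 of 8 rose and 2 fell in primed cells at P5. These are 37.5% and 25% of them, beside 31.2% and 31.1% of all genes. Kmt2a, the catalytic subunit of a COMPASS-like complex named after Drosophila trithorax (ENSMUSG00000002028, chr9:44803355-44881296 in GRCm38), was at 89.9 and 92.2 CPM in naïve and at 154 and 162 CPM in primed libraries at P5. Its P15 levels were 71.5 and 70.9 CPM in naïve and 68.7 and 71.6 CPM in primed libraries, beside 74.9 CPM in MEFs. The 2 primed libraries at P5 thus stood above all others, and at P15 the states overlapped. The log2 fold change was 0.83 ± 0.04 (SE; adjusted p = 2.21e-16), which is 1.77-fold, at P5 and -0.03 ± 0.07 (adjusted p = 0.707) at P15. Kmt2d, which with Kmt2c monomethylates H3K4 at enhancers, also rose at P5 (0.24, adjusted p = 4.01e-05), and its value at P15 was 0.16 (adjusted p = 0.0473).

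Setd7, a SET protein that monomethylates H3K4 in vitro as well as non-histone proteins (ENSMUSG00000037111, chr3:51515319-51560879), rose at both passages. It was at 56.3 and 58.6 CPM in naïve and 109 and 107 CPM in primed libraries at P5, and at 53.0 and 51.2 CPM in naïve and 83.0 and 89.3 CPM in primed libraries at P15. Every primed library was above every naïve library, and MEFs were at 90.2 CPM. The log2 fold changes were 0.95 ± 0.05 (adjusted p = 1.44e-16) and 0.72 ± 0.07 (adjusted p = 7.52e-11). With the feeder share of the MEF counts taken off they were 1.17 and 0.97.

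The other members of this group fell or were not called. Kmt2b, the paralogue of Kmt2a that methylates H3K4 at bivalent promoters in ESCs (ENSMUSG00000006307, chr7:30568858-30588726), was at 138 and 144 CPM in naïve and 122 and 121 CPM in primed libraries at P5, and at 120 and 126 against 94.5 and 84.5 CPM at P15, with 84.9 CPM in MEFs. The primed libraries were below the naïve ones at each passage. The log2 fold changes were -0.18 ± 0.04 (adjusted p = 4.46e-04) at P5, which turned to 0.023 (adjusted p = 0.640) with library size alone, and -0.47 ± 0.07 (adjusted p = 1.62e-07) at P15. Without either primed library at P5 the adjusted p at P5 was 0.0135 and 0.0264. Kmt2c fell at both passages (-0.31 and -0.63). Setd1a and Setd1b, the catalytic subunits of the COMPASS complexes proper, were not called, with -0.17 and -0.08 for Setd1a and -0.0038 and 0.023 for Setd1b. Of the exon bases of Setd1a, 52.3% also lie in other gene models, 1 on the same and 1 on the other strand, so its counts are uncertain. Prdm9, the methyltransferase that marks meiotic recombination sites, was at 1.33 to 2.83 CPM and was not called.

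Of the 6 removers of H3K4 methylation, 1 rose and 3 fell at P5, where 31.2% of all genes rose and 31.1% fell. At P15 none rose and 4 fell, where 28.2% of all genes rose and 28.4% fell. Kdm5b, a JmjC demethylase that is abundant in ESCs (ENSMUSG00000042207, chr1:134560171-134635285), was at 384 and 390 CPM in naïve and 237 and 229 CPM in primed libraries at P5, and at 333 and 335 against 172 and 169 CPM at P15. MEFs were at 139 CPM, below all 8. The states did not overlap, and the log2 fold changes were -0.70 ± 0.04 (adjusted p = 9.15e-17) and -0.98 ± 0.06 (adjusted p = 2.45e-17). Its X-linked paralogue Kdm5c was at 205 and 197 CPM in naïve and 138 and 141 CPM in primed libraries at P5, at 175 and 174 against 135 and 134 CPM at P15, and at 155 CPM in MEFs. The log2 fold changes were -0.50 and -0.39, and again no primed library reached a naïve library. Kdm1a, a subunit of corepressor complexes, was at 251 and 251 CPM in naïve and 212 and 204 CPM in primed libraries at P5, at 222 and 222 against 191 and 180 CPM at P15, and at 101 CPM in MEFs. It fell by 0.24 and 0.27 on the log2 scale, and this was among the calls that library size alone ended (at P5 and P15). The call at P15 was also lost without primed replicate 2 (-0.20) and with the feeder share taken off (-0.24).

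Kdm5a was the one that rose at P5 (0.19, adjusted p = 2.98e-04), with -0.07 (adjusted p = 0.371) at P15. Kdm1b, the oxidase required for maternal imprints in oocytes (ENSMUSG00000038080, chr13:47043499-47085279), was at 15.3 and 17.6 CPM in naïve and 13.5 and 14.0 CPM in primed libraries at P5. The P15 levels were 16.4 and 15.9 CPM in naïve and 9.24 and 8.98 CPM in primed libraries, with 15.4 CPM in MEFs. The 2 primed libraries at P15 were the lowest of all 9, and the log2 fold changes were -0.22 ± 0.11 (adjusted p = 0.0670) at P5 and -0.84 ± 0.14 (adjusted p = 2.26e-06) at P15. Of its exon bases, 9.19% lie also in Dek on the other strand. Kdm5d, the Y-linked copy of Kdm5c, was at 2.54 to 3.78 CPM in the pluripotent libraries and 12.3 CPM in MEFs and was not called. With the feeder share taken off, it was called higher in primed cells at P5. Whether Kdm5d shares reads with Kdm5c was not tested. The other Y-linked genes Ddx3y, Eif2s3y and Uty fell in primed cells at P15 (-0.95, -0.91 and -0.68), while at P5 Eif2s3y rose (0.59, adjusted p = 9.91e-05) and Ddx3y and Uty were at 0.20 and 0.16 and not called. MEFs had 56.0 CPM of Ddx3y, 29.0 of Eif2s3y and 8.76 of Uty. Primed libraries at P15 had 14.5 and 15.9, 5.85 and 5.34, and 4.93 and 5.85 CPM. For Ddx3y, Eif2s3y and Uty the part of feeder RNA was not examined.

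Among the 7 removers of H3K9 methylation, 6 were tested. At P5, 1 rose and 4 fell, and at P15 1 rose and 3 fell. Of all genes, 31.2% rose and 31.1% fell at P5, and 28.2% and 28.4% did at P15. Kdm7a, which acts on H3K9 and H3K27 (ENSMUSG00000042599, chr6:39136623-39206789), was at 49.7 and 47.3 CPM in naïve and 79.96 and 83.3 CPM in primed libraries at P5. By P15 it stood at 32.4 and 31.0 CPM in naïve and 32.2 and 34.8 CPM in primed libraries, and at 17.01 CPM in MEFs. As for Kmt2a, the primed libraries at P5 were the highest and the states overlapped at P15. The log2 fold change was 0.78 ± 0.05 (adjusted p = 1.40e-13), which is 1.72-fold, at P5 and 0.07 ± 0.09 (adjusted p = 0.512) at P15.

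Kdm4c, a demethylase of trimethylated H3K9 (ENSMUSG00000028397, chr4:74242497-74405860), had the largest fall among Kdm, Kmt and Setd genes at P5. It was at 97.8 and 105 CPM in naïve and 51.1 and 53.7 CPM in primed libraries at P5, and at 98.1 and 93.4 against 48.5 and 49.9 CPM at P15, with 27.9 CPM in MEFs. The primed libraries thus lay close together at both passages, and the log2 fold changes were -0.92 ± 0.05 (adjusted p = 1.66e-15) and -0.97 ± 0.07 (adjusted p = 1.33e-14). Kdm3a and Kdm3b, which remove mono- and dimethylation of H3K9, fell at both passages (-0.31 and -0.54 for Kdm3a, -0.51 and -0.55 for Kdm3b). A lncRNA gene model shares 24.6% of the exon bases of Kdm3b. Kdm4b (ENSMUSG00000024201, chr17:56326062-56402870) went the other way at P15, with 50.6 and 51.2 CPM in naïve and 45.6 and 48.3 CPM in primed libraries at P5 and 41.4 and 43.2 against 57.4 and 52.1 CPM at P15, beside 42.3 CPM in MEFs. Its log2 fold change was -0.09 ± 0.06 (adjusted p = 0.206) at P5 and 0.36 ± 0.08 (adjusted p = 2.12e-04) at P15. Kdm4a fell at P5 only by the test (-0.21, with -0.14 and adjusted p = 0.0588 at P15), and whether these 2 values differ was not shown, since their difference had an adjusted p of 0.376.

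The H3K27 demethylases Kdm6a and Kdm6b were at -0.01 and -0.09 on the log2 scale at P5, were at -0.20 and 0.11 at P15 and were called between states at neither passage, but Kdm6a turned to 0.19 (adjusted p = 0.00810) at P5 with library size alone. The H3K36 demethylases Kdm2a and Kdm2b were also not called at either passage, with 0.10 and 0.03 for Kdm2a and 0.11 and -0.09 for Kdm2b. Each member was placed in 1 group, so other members that act on H3K27 or H3K36 were counted elsewhere. Among them Kdm7a, which acts on H3K27 as well as H3K9, rose at P5. Setd2, the enzyme that trimethylates H3K36 behind RNA polymerase II, fell slightly at both passages (-0.15 and -0.20). That call ended with DESeq2's Wald test at each passage, at P5 without either primed library (adjusted p = 0.0320 and 0.0547), and at P15 without any 1 of the 4 libraries (adjusted p up to 0.0657), and with library size alone the value at P5 was 0.049.

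Of the H4K20 methyltransferases, Kmt5a and Kmt5b fell at both passages and Kmt5c was not called. Kmt5a was at 140 and 138 CPM in naïve and 114 and 118 CPM in primed libraries at P5, at 149 and 143 against 125 and 124 CPM at P15, and at 72.7 CPM in MEFs. Its log2 fold changes were -0.23 and -0.24. The call at P15 was lost without primed replicate 2 (-0.20) and with the feeder share taken off (-0.21). Kmt5b fell by 0.28 and 0.26 on the log2 scale, a call lost at P15 without any 1 of the 4 libraries and at P5 without primed replicate 2. At P15 it was also lost with DESeq2's Wald test (adjusted p = 0.0406). The quasi-likelihood test lost it there with the replicate block (adjusted p = 0.0197) and without the low-count filter (adjusted p = 0.0140). Kmt5c was at 58.0 to 70.2 CPM in the 8 libraries and 29.7 CPM in MEFs, and its values were 0.05 and 0.01. With library size alone, Kmt5a and Kmt5b were called at neither passage.

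Among members whose substrates are other proteins or are uncertain, 2 of 6 rose and 1 fell at each passage. The shares of all genes were 31.2% higher and 31.1% lower at P5, and 28.2% and 28.4% at P15. Kmt2e, a relative of the Kmt2 enzymes without known activity of its own that binds methylated H3K4 (ENSMUSG00000029004, chr5:23434441-23504235), was at 50.9 and 51.6 CPM in naïve and 95.3 and 90.6 CPM in primed libraries at P5. Later, at P15, it was at 41.7 and 40.6 CPM in naïve and 73.9 and 74.8 CPM in primed libraries, and MEFs were at 102 CPM, above all 8. All 4 primed libraries were above all 4 naïve libraries. The log2 fold changes were 0.89 ± 0.05 (adjusted p = 2.42e-15) and 0.84 ± 0.08 (adjusted p = 3.52e-12), and with the feeder share taken off they were 1.21 and 1.28. Of its exon bases, 9.31% lie also in Srpk2.

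Setd5, a SET protein linked to histone deacetylase complexes (ENSMUSG00000034269, chr6:113077365-113153435), was at 254 CPM in both naïve and at 317 and 314 CPM in primed libraries at P5. At P15 it was at 249 and 251 CPM in naïve and 252 and 250 CPM in primed libraries, and at 213 CPM in MEFs. It rose at P5 (0.35 ± 0.04, adjusted p = 6.20e-10), and the value at P15 was -0.01 ± 0.06 (adjusted p = 0.938). Setd6, which methylates the NF-κB subunit RelA, was at 38.2 and 39.4 CPM in naïve and 24.4 and 22.9 CPM in primed libraries at P5, at 41.3 and 37.7 against 23.4 and 21.1 CPM at P15, and at 12.1 CPM in MEFs. It fell at both passages (-0.68 ± 0.08, adjusted p = 3.40e-09, and -0.84 ± 0.10, adjusted p = 2.02e-09). Setd3 was at 97.2 to 105 CPM in all 8 libraries and 93.3 CPM in MEFs, with values of 0.07 and 0.01 that were not called. Kdm8, a hydroxylase whose activity on histones is debated, rose at P15 (0.89, adjusted p = 8.74e-05) and had 0.30 (adjusted p = 0.127) at P5.

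Prdm14 had the largest change of all members at P15 (ENSMUSG00000042414, chr1:13113457-13127163). It was at 12.7 and 13.2 CPM in naïve and 1.44 and 1.94 CPM in primed libraries at P5. At P15 it was at 13.2 and 12.1 CPM in naïve and 0.689 and 0.966 CPM in primed libraries, and no read of it was counted in MEFs, where a count of 0 allows up to 0.128 CPM. Every primed library was far below every naïve library, with 12 to 35 counts against 179 to 266. The fall was 7.50-fold at P5 (log2 fold change -2.91 ± 0.18, adjusted p = 1.49e-14) and 15.2-fold at P15 (-3.93 ± 0.25, adjusted p = 1.91e-16). The difference between these falls was -1.01 ± 0.35 on the log2 scale and did not pass the threshold (adjusted p = 0.0255). Germ cell markers moved the same way, with 5 of 6 lower at each passage, where 31.1% and 28.4% of all genes fell. The summed level of these markers was 112 to 122 CPM in naïve and 35.6 to 37.6 CPM in primed libraries at P5. Their part in the result was not tested.

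Prdm6 and Prdm8, both low, had the largest rises at P5. A gene was tested if it had at least 10 counts in at least 2 libraries. At P5 both met this through the primed libraries alone, so only a rise could have been called. Prdm8, a factor of neural and retinal development (ENSMUSG00000035456, chr5:98167198-98188991), was at 0.199 and 0.198 CPM in naïve and 1.59 and 1.61 CPM in primed libraries at P5, which are 4 counts in each naïve and 32 and 29 in the primed libraries. This was an 8.01-fold rise (SE of the log2 value 0.51, adjusted p = 6.13e-06), and it was not tested at P15, where naïve libraries had 0 and 0.384 CPM and primed libraries 0.402 and 1.02 CPM. MEFs were at 0.170 CPM. Of its exon bases, 29.1% lie in a gene on the other strand that itself had 9 counts or fewer in each library. Prdm6, a repressor known from smooth muscle (ENSMUSG00000069378, chr18:53463583-53575907), was at 0.348 and 0.198 CPM in naïve and 1.19 and 2.61 CPM in primed libraries at P5. At P15 it was at 0.884 and 0.831 CPM in naïve and 0.746 and 0.682 CPM in primed libraries, and MEFs, at 4.08 CPM, were the highest. The primed libraries at P5 differed from each other by more than the naïve libraries did, and the log2 fold change was 2.79 ± 0.51 (adjusted p = 1.83e-05) at P5 and -0.27 ± 0.49 (adjusted p = 0.645) at P15. Its naïve level at P5, 4 and 7 counts, lies near the limit of what these libraries show.

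Of the 12 Prdm genes tested at P5, 2 rose and 5 fell, and of 11 tested at P15, 1 rose and 2 fell. The shares of all genes were 31.2% higher and 31.1% lower at P5, and 28.2% and 28.4% at P15. Prdm4, which was at 70.4 and 66.4 CPM in naïve and 45.1 and 49.3 CPM in primed libraries at P5, fell at both passages (-0.51 and -0.43). At P15 it was at 55.5 and 59.5 against 41.5 and 44.4 CPM, and at 55.2 CPM in MEFs. Prdm2, at 92.6 and 81.9 CPM in naïve and 71.9 and 71.7 CPM in primed libraries at P5, fell there (-0.25, adjusted p = 1.71e-04), and at P15, with 71.8 and 77.1 against 67.1 and 62.5 CPM, it had -0.21 (adjusted p = 0.0101). MEFs had 65.5 CPM of Prdm2. Prdm1, the other Prdm factor of germ cell specification, fell at P5 (-0.45, adjusted p = 2.46e-04) and had -0.19 (adjusted p = 0.225) at P15. Leaving out primed replicate 1 at P5 ended the calls of Prdm1 and Prdm2 there (adjusted p = 0.0212 and 0.0139). Prdm11 was the one that rose at P15 (0.85, adjusted p = 1.47e-05).

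**Figure D3:**
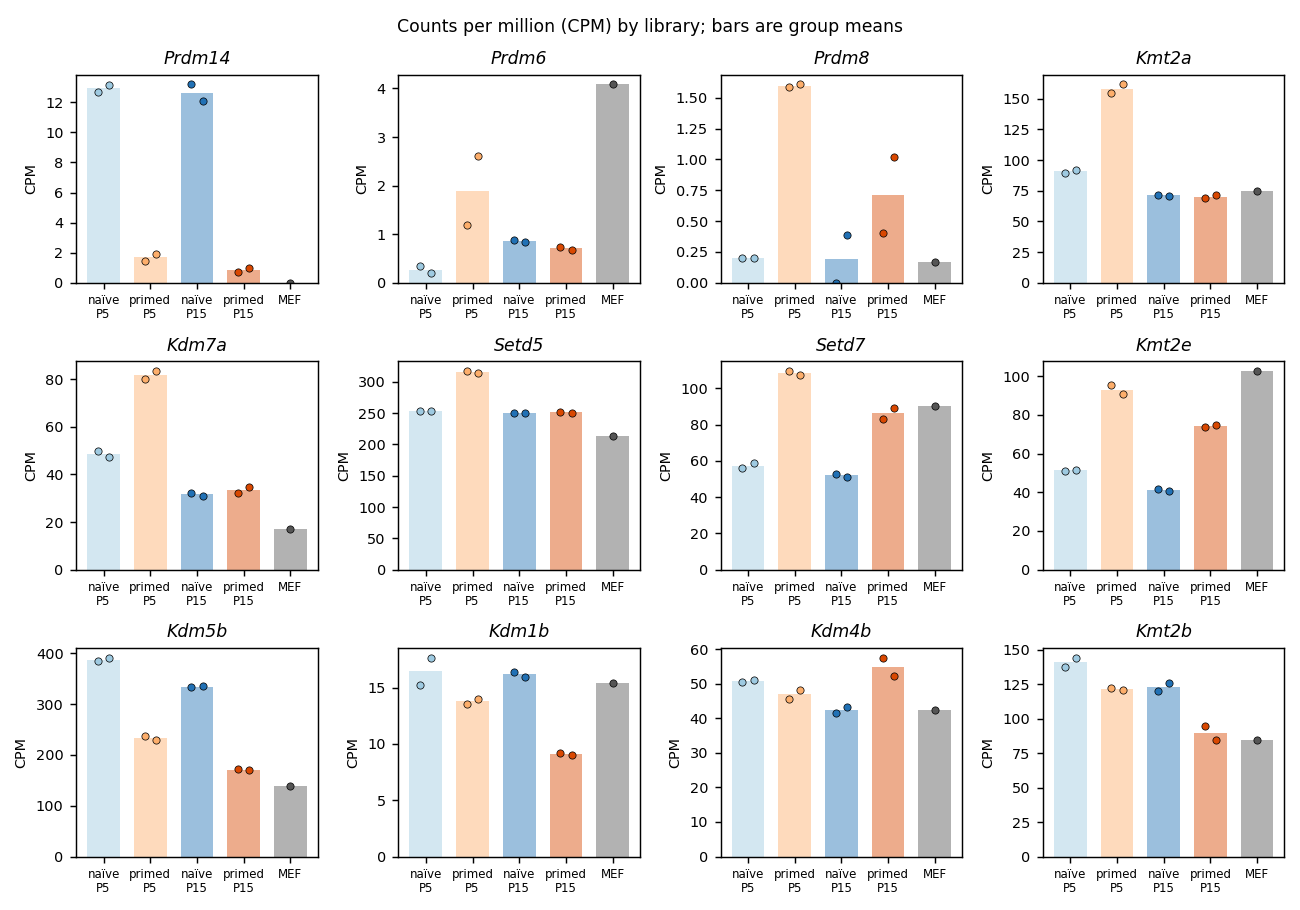
CPM in each library (points) and group means (bars) of 12 members, for the 4 pluripotent groups and the 1 MEF library; each panel has its own axis from 0. Kmt2a, Kdm7a and Setd5 have their highest levels in the 2 primed libraries at P5 and overlap between states at P15, while Setd7 and Kmt2e stay higher and Prdm14 and Kdm5b lower in primed cells.

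Whether the effect of state differed between passages was tested as an interaction over the 8 libraries. The difference was positive for 1 and negative for 7 of 45 members, where 13.3% of all 16926 genes had a positive and 10.8% a negative difference. A negative value means that primed cells were lower relative to naïve cells at P15 than at P5. Kmt2a (-0.84 ± 0.08, adjusted p = 5.20e-10), Kdm7a (-0.69 ± 0.10, adjusted p = 2.33e-06) and Setd5 (-0.33 ± 0.06, adjusted p = 6.72e-05) all rose at P5 and were not called at P15, and the call of the difference held for these 3 under every alternative. For Kdm5b (-0.26 ± 0.06, adjusted p = 0.00118), Kmt2b (-0.27 ± 0.08, adjusted p = 0.00718) and Kdm1b (-0.60 ± 0.17, adjusted p = 0.00639), primed cells were further below naïve cells at P15 than at P5. Kdm4b had the positive difference (0.46 ± 0.10, adjusted p = 4.86e-04). Prdm6 also rose at P5 and was not called at P15, and its value was -3.04 ± 0.76 (adjusted p = 0.00211). With the feeder share taken off, the quasi-likelihood test no longer called Kmt2b, Kdm5b and Prdm6 (adjusted p = 0.0418, 0.0111 and 0.0135). The calls of Kdm1b and Kmt2b were lost with DESeq2's Wald test and without the low-count filter. Kmt2b also lost its call with a replicate block. Single libraries carried some of the calls too. That of Kdm1b was lost without any 1 of 7 libraries (adjusted p 0.0119 to 0.0412) and that of Kmt2b without any 1 of 6 (0.0157 to 0.0662). That of Kdm5b was lost without naïve replicate 1 at P5 (0.0106), that of Kdm4b without primed replicate 1 at P5 (0.0115) and that of Prdm6 without naïve replicate 2 or primed replicate 2 at P5 (0.0153 and 0.0286).

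Within each state, more members fell than rose with passage. In naïve cells none of 44 members rose and 8 fell from P5 to P15, where 4.21% of all 15683 genes rose and 5.01% fell, and the count of 8 ranged from 2 to 16 under the alternatives. In primed cells 2 of 45 rose and 20 fell, where 24.3% of all 15957 genes rose and 22.8% fell. Among the 20, Kdm7a, Kmt2a and Prdm6 had the largest falls, each of at least 2-fold. The share of all genes that fell that far was not counted. Fibroblast markers went the other way, with 11 of 20 higher and 3 lower in naïve and 18 higher and 1 lower in primed cells. With the feeder share taken off, 14 members fell in primed cells, and the calls of Kdm1a, Kdm2b, Kdm3a, Kdm3b, Kdm6a, Prdm1 and Setd4 were lost. The median log2 fold change was -0.13 in naïve and -0.21 in primed cells, beside 0.00 for all genes in both. These comparisons share their libraries with those between states, so the values are given side by side only. Kmt2a fell by 0.35 in naïve (adjusted p = 5.53e-04) and by 1.20 in primed cells (adjusted p = 5.58e-16) on the log2 scale. Kdm7a fell by 0.61 (adjusted p = 7.43e-05) and by 1.32 (adjusted p = 4.07e-15), so that its level at P15 was below that of naïve cells at P5 in both states. Setd5 had -0.02 in naïve (adjusted p = 0.792) and fell by 0.36 in primed cells (adjusted p = 2.97e-07). The other members that fell in naïve cells were Kdm5a, Kdm5b, Kdm5c, Kmt2c, Kmt2e and Prdm1, and Kdm7a and Kmt2a kept the call there under every alternative.

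In primed cells 5 of 8 H3K4 methyltransferases and 4 of 6 H3K4 demethylases fell with passage, where 22.8% of all genes fell. Among them were Kmt2b (-0.47), Kmt2c (-0.64), Kmt2d (-0.34), Kdm5a (-0.54), Kdm5b (-0.48) and Kdm1b (-0.63). The H4K20 methyltransferases were not called in either state. The 2 members that rose in primed cells were Kdm4a (0.21, adjusted p = 0.00253) and Prdm11 (0.46, adjusted p = 0.00343), and neither rise was called without primed replicate 1 at P5 or without primed replicate 2 at P5, with DESeq2's Wald test, with library size alone or with the feeder share taken off. Prdm11 was at 16.4 CPM in MEFs, above all 8 libraries. Without primed replicate 1 at P5, 14 members fell in place of 20.

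**Figure D4:**
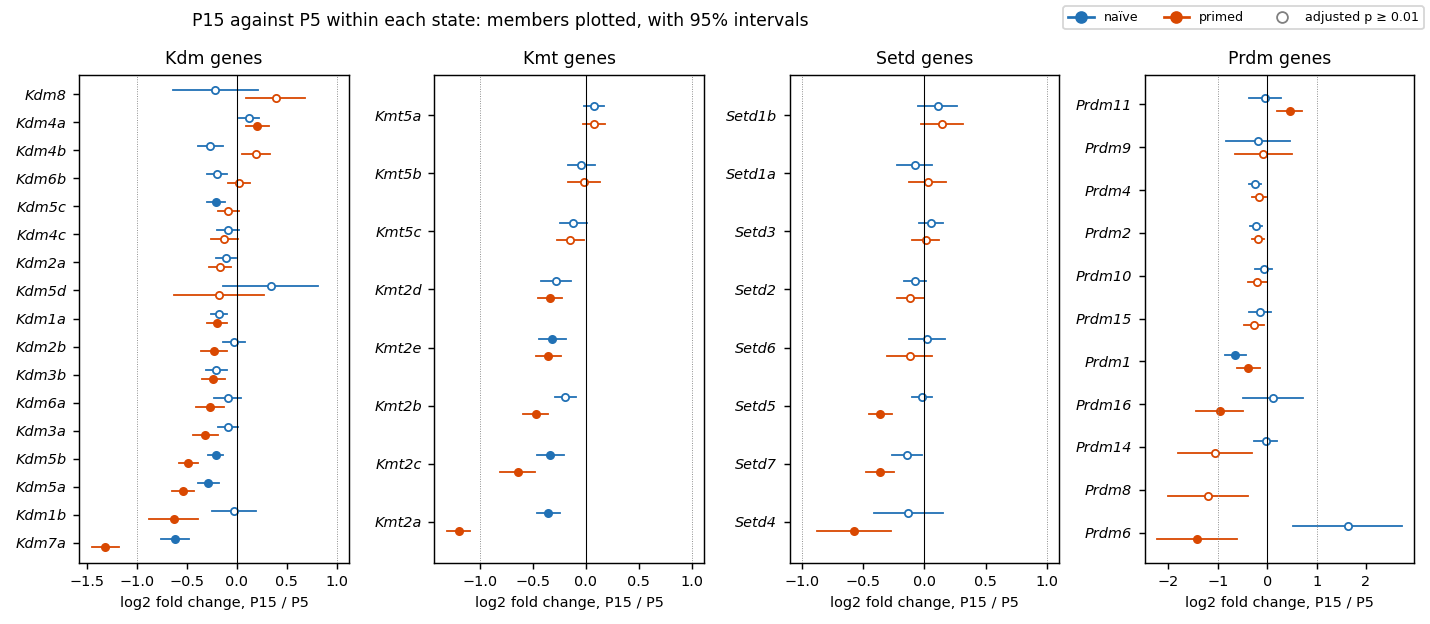
Log2 fold change from P5 to P15 for the members plotted, within naïve (blue) and primed (orange) cells, with 95% intervals. The intervals rest on the SE derived from edgeR's test statistic. Filled points have an adjusted p under 0.01 and dotted lines mark 2-fold. Kdm7a and Kmt2a lie lowest in their panels at -1.32 and -1.20 in primed cells, and most members lie left of 0.

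Genes outside the symbol rule that write, remove or support the same marks were counted as fixed lists, to be read beside the 31.2% of all genes that rose and 31.1% that fell at P5 and the 28.2% and 28.4% at P15. Of 20 other lysine methyltransferases, 7 rose and 9 fell in primed cells at P5, and 5 rose and 6 fell at P15. Ezh2, the H3K27 methyltransferase, was at 174 and 179 CPM in naïve and 99.5 and 91.6 CPM in primed libraries at P5 (-0.85), and Nsd2, an H3K36 methyltransferase, at 80.5 and 74.5 against 142 and 134 CPM (0.86). Of 13 subunits of COMPASS and Kmt2 complexes, 12 were tested, 2 rose and 8 fell at P5, and 2 rose and 7 fell at P15. Ash2l and Wdr5, core subunits shared by these complexes, were at 262 and 271 and at 231 and 216 CPM in naïve, and at 137 and 131 and at 114 and 114 CPM in primed libraries at P5, with log2 fold changes of -0.96 and -0.94. The median of the subunits was -0.57 at P5, beside 0.12 for the 8 H3K4 methyltransferases among the members.

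Of 7 other lysine demethylases, 2 rose and 2 fell at P5 and 1 rose and 4 fell at P15, and Phf2 rose at both (0.89 and 0.90), with 101 CPM in MEFs against 26.4 to 53.5 CPM in the pluripotent libraries. Of 8 partners of Kdm1a in corepressor complexes, 2 rose and 3 fell at P5 and 3 rose and 3 fell at P15, and Hdac1 fell at both (-0.60 and -0.47). Of 9 arginine methyltransferases, 2 rose and 6 fell at P5 and 2 rose and 5 fell at P15. Prmt8 was at 14.0 and 13.4 CPM in naïve and 1.09 and 1.22 CPM in primed libraries at P5, a log2 fold change of -3.53. The other genes of these lists that fell or rose stayed within 2-fold at P5, except Smyd1 (2.84) and Mecom (1.20) among the lysine methyltransferases.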

How the data were processed

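The authors deposited raw counts of reads per gene for all 9 libraries in 1 table. They purified poly(A) RNA, made libraries with the NEBNext Ultra kit, trimmed reads with Cutadapt, aligned them to mm10 with HISAT2 and counted them with featureCounts on Ensembl genes. The release of that annotation and the treatment of strand and of reads with several alignments are not given in the sources used here, so overlapping genes and close paralogues may share reads. The 92 spike-in entries held no count and were left out. Names and coordinates came from GENCODE M21 (GRCm38), which named 54165 of the 54232 genes.

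Counts were scaled by TMM. Each comparison between 2 groups was fitted on its 4 libraries with edgeR 4.0.16 (R 4.3.3, limma 3.58.1) by the quasi-likelihood test, over genes with at least 10 counts in at least 2 libraries, and the difference between passages on all 8. P-values, all two-sided, were adjusted by Benjamini and Hochberg over all genes tested, and a call needed an adjusted p under 0.01, as in the study, without the 2-fold change that the study also required. The SE was derived from the test statistic. The MEF library entered no fit. CPM used TMM-scaled library sizes of all 9 libraries. The procedure was tested on simulated counts. Alternatives were DESeq2 1.42.0 (size factors, and its Wald test), library size alone, no filter, a fit of all 8 libraries, a replicate block, the MEF counts taken off at the feeder share, and each library left out.

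The members and lists were chosen with earlier results of these data known. Values per library are given for members past 2-fold at either passage, those whose effect of state differed between passages, Prdm14 and the 2 members of each stem with the highest level per kilobase. Values for Setd7, Kmt2e, Kdm4c and other members called were added after they were seen. Promoter letters are from RefSeq. Of the members counted, 1 is not reported here by its own values and is not plotted.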

Additional observations from a re-analysis of the deposited data

Results flagged for a closer look

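For 8 members the effect of the primed state differed between P15 and P5 in the fit of the 8 libraries, which is what set them apart here. The differences on the log2 scale were -0.84 for Kmt2a, -0.69 for Kdm7a, -0.33 for Setd5, -0.26 for Kdm5b, -0.27 for Kmt2b, -0.60 for Kdm1b, -3.04 for Prdm6 and 0.46 for Kdm4b. The call held under every alternative for Kmt2a, Kdm7a and Setd5 and was lost under at least 1 for the other 5. Groups of 2 libraries are too small to look for single libraries that stand apart.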

How the results depend on the processing

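Library size alone changed most. It gave 16 members higher and 7 lower at P5 around a median of 0.12 on the log2 scale, a median of -0.091 at P15, 15 lower with passage in naïve cells, none higher and 31 lower with passage in primed cells, and 12 negative differences between passages, where TMM gave 9, 18, -0.09, -0.20, 8, 2, 20 and 7. It also turned the direction of Kdm6a (0.19), Kmt2b (0.023) and Setd2 (0.049) at P5. The cause was not tested. In naïve cells 2 members were lower at P15 without the filter, 16 in the fit of all 8 libraries and 5 with DESeq2's Wald test, against 8. In primed cells none were higher at P15 with the Wald test or with the feeder share taken off, against 2, and with the feeder share taken off 4 differences between passages were negative, against 7. DESeq2's size factors moved no count by over 1.5 times. Leaving out 1 library gave 7 to 10 members higher and 13 to 19 lower at P5, 5 to 6 and 11 to 15 at P15 with medians of -0.19 to -0.15, 6 to 8 lower in naïve and 0 to 4 higher and 14 to 20 lower in primed cells with passage, and 0 to 1 positive and 4 to 7 negative differences. A group left with 1 library was assumed to vary like the others.

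Deviations of libraries with the same number correlated at -0.09 between states at P5, -0.12 at P15, 0.12 within naïve and 0.11 within primed cells, so the numbers, with 2 pairs each, do not show a pairing. With the replicate block, 16 members were lower at P15 in naïve cells, 3 higher and 23 lower in primed cells, and 13 lower between states at P15. Crossing the numbers at P15, an alternative added after the data were seen, gave 6 higher and 19 lower.

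With 2 libraries a group, members under about 1 CPM, such as Prdm6 and Prdm8, rest on a few counts, and depth limits what can be said of Kdm4d, Prdm12 and Prdm13.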
